A study of Xenopus laevis with 6 samples.

Results

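In chromatin from gastrulating Xenopus laevis embryos, the peak caller MACS called 584 regions in all 3 replicates of a FLAG-β-catenin ChIP whose replicate 1 intervals overlapped no peak of the caller HOMER. The regions were taken from the 9449 MACS peaks that replicate 1 has on the 18 chromosomes. Of those, 1747 overlapped by at least 1 bp a MACS peak of replicate 2 and of replicate 3, and 584 of the 1747 overlapped no HOMER peak of any replicate. These are called the HOMER-free regions here. The other 1163, which overlapped at least 1 HOMER peak, are called the HOMER-called regions and serve as the comparison. HOMER overlap was asked of the replicate 1 interval alone. A wider replicate 2 or 3 interval of a HOMER-free region may therefore still meet a HOMER peak. Overlap with both other MACS lists was thus found for 18.5% of the replicate 1 MACS peaks on chromosomes, and absence of any HOMER peak for 35.6%. Among the 1747 recurrent peaks the HOMER-free share was 33.4% (95% Wilson interval 31.3 to 35.7). The regions were thus selected on measured values, the positions of MACS and HOMER calls, and these shares describe the choice and are not a finding.

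Canonical Wnt signalling acts on genes through β-catenin. The protein has no DNA-binding domain of its own and reaches chromatin through partners, chiefly the TCF/LEF factors, at enhancers and promoters of Wnt target genes. In the frog embryo it first specifies the dorsal side and later, during gastrulation, takes part in patterning the mesoderm and the posterior and ventral body. A ChIP peak caller looks for places where immunoprecipitated fragments pile up beyond a control library. MACS reports intervals of variable width. The HOMER lists deposited here had median widths of 172, 290 and 246 bp in replicates 1, 2 and 3. A region found by MACS alone is a peak call and not a proven binding site.

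The series holds 3 ChIP libraries and 3 input libraries from whole embryos at stage 11.5, in mid to late gastrulation. All embryos, those of the inputs included, carried β-catenin with 3 FLAG tags, supplied by animal injection of 500 pg into both blastomeres at the 2-cell stage, a level stated to leave the phenotype unaffected. The tagged protein therefore came on top of the embryo's own β-catenin, its distribution depended on the injection, and no library from embryos without the tag is in the series. Chromatin of pools of 100 embryos was sonicated, from about 500 fixed embryos per pool by the series' design text, so no library separates the germ layers. How much each layer contributed to the ChIP signal is not known. Nothing in the labels ties the replicates to separate clutches, and differences among them may be technical. Depth is unknown, because the lists carry no read totals, and the inputs enter only through the peak calling.

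The lists of replicate 3 stood apart from the others. Its MACS list was the longest, with 40056 peaks against 10351 and 27402 in replicates 1 and 2, and had the narrowest peaks, with a median of 196 bp against 345 and 263 bp. Its HOMER list was the shortest, with 4218 peaks against 9258 and 10317. Without replicate 3, the same rule on replicates 1 and 2 gave 891 HOMER-free regions, 20.004% of those shared. Without replicate 2 it gave 927, or 44.2%, and without replicate 1 it gave 9170, or 87.8%. The number of regions thus rested most on replicate 1, whose MACS list was the shortest.

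The HOMER-free regions ranked low in replicate 1, higher in replicate 2 and highest in replicate 3. Ranks are those of the score that the authors' MACS run gave each peak, expressed as a percentile of the whole list of that replicate, with 0 the best, because the scores are not on one scale across lists. Replicate 1 had a median percentile of 61.0 (quartiles 43.2 and 79.9). The median was 18.5 (7.32 and 38.5) in replicate 2 and 8.07 (1.70 and 25.4) in replicate 3. These medians depended on which lists had to overlap: without replicate 1 they were 39.4 in replicate 2 and 18.6 in replicate 3, and without replicate 2 the replicate 3 median was 17.8. The order of the replicates was the same in these settings. In the HOMER-called regions the order was different, at 11.3, 3.54 and 27.4 in replicates 1, 2 and 3. For 452 of the 584 regions the best percentile was that of replicate 3, for 116 that of replicate 2 and for 16 that of replicate 1, whereas 489 had their worst in replicate 1. Of the 1163 HOMER-called regions, 887 were best in replicate 2 and 835 were worst in replicate 3. Where a region met several peaks of replicate 2 or 3, the one with the highest score was used. Percentiles depend on the length of a list, and scores come from the calls that chose the regions, so no test was made.

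**Figure D1:**
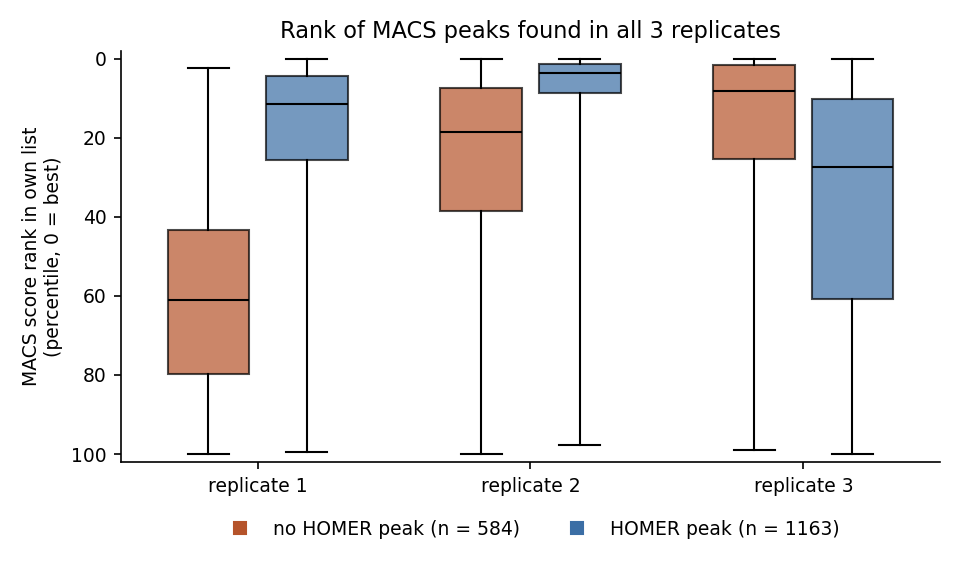
Percentile rank of the MACS score in the list of each replicate (y axis, 0 is the best score) for the 584 HOMER-free regions and the 1163 HOMER-called regions. Boxes span the quartiles with the median as a line, and whiskers reach the lowest and highest values. The median of the HOMER-free regions goes from 61.0 in replicate 1 to 8.07 in replicate 3, and in replicate 3 it lies above that of the HOMER-called regions, at 27.4.

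The best-scoring 10% of each list shows the same contrast. In replicate 3, 327 of the 584 regions (56.0%) lay in the best 10% of the list, a place held by 9.87% of its chromosomal peaks. In replicate 2 it was 192 regions (32.9%, against 10.2% of its chromosomal peaks), and in replicate 1 it was 12 regions (2.05%, against 10.5%). The 12 regions of replicate 1 were in the best 10% of the other lists too. For the HOMER-called regions the numbers were 540, 922 and 284 of 1163 in replicates 1, 2 and 3, or 46.4%, 79.3% and 24.4%. Among all 1747 recurrent peaks, the HOMER-free share grew as the replicate 1 rank worsened, from 2.17% in the best 10% of that list to 44.5% between percentiles 25 and 50 and 82.4% beyond percentile 75. It also grew with a worse replicate 2 rank, from 17.2% in the best 10% to 81.8% beyond percentile 75. With the replicate 3 rank it went the other way, from 53.5% in the best 10% to 14.3% beyond percentile 75. The lowest part of all lists held few regions of either class, but more HOMER-free ones. Of the 584, 21 lay in the worse 50% of all 3 lists, against 1 of the 1163 HOMER-called regions. The better 50% of all 3 lists held 168 of the 584 and 728 of the 1163.

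Scores of replicates 2 and 3 varied together across the HOMER-free regions more closely than either did with replicate 1. Over the 584 regions, replicates 2 and 3 gave a Spearman's rho of 0.685, replicates 1 and 2 gave 0.344, and replicates 1 and 3 gave 0.268. Over the 1163 HOMER-called regions replicates 1 and 2 gave the highest value, 0.597, followed by 0.518 for replicates 2 and 3 and 0.335 for replicates 1 and 3. All regions of 1 replicate share a library and a peak-calling run, and regions are not independent. The range of scores also differs between the classes and between the lists. From lower to upper quartile, HOMER-free scores ran from 56.1 to 82.8 for replicate 1, close to the lowest MACS scores. For replicate 2 this range went from 80.8 to 249, and for replicate 3 from 91.7 to 329. How far the narrow replicate 1 range sets its low rho values was not tested, so all rho values here are descriptions.

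Individual regions show these ranks at the top of the set. Coordinates are those of the deposited lists, counted from 1, and the sources used here name no genome build. For that reason no gene, exon or sequence is assigned to a region. The 10 regions with the best mean percentile were all single MACS intervals on chromosomes 1L, 2S, 3L, 5L, 6L, 7L, 7S and 8S. The best was chr5L:42559745-42560276, with MACS scores of 352, 1385 and 1238 in replicates 1, 2 and 3. These scores ranked 236, 42 and 13 in their lists, so the leading region stood at percentile 2.28 in replicate 1 and at 0.153 and 0.0325 in the others. Its intervals were 532, 730 and 479 bp wide, and the nearest HOMER peak of any replicate was 241.7 kb away.

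The second region, chr3L:34053432-34054130, ranked 546, 193 and 90 with scores of 269, 837 and 730. The third, chr1L:19863504-19864128, ranked 356, 621.5 and 505, with tied scores sharing a rank. The fourth was chr2S:46403260-46404065, with ranks of 648, 194 and 91. The worst percentiles among these 4 regions were 6.26 in replicate 1, 2.27 in replicate 2 and 1.26 in replicate 3.

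The other 6 of the 10 had mean percentiles from 3.22 to 4.63. They lay at chr7S:16923403-16923956, chr7L:40144463-40145154, chr6L:2544475-2544928, chr1L:182720622-182721265, chr7L:60073091-60073782 and chr8S:16037315-16038297. The last ranked 1249 in replicate 1 and 17 in replicate 3, the widest gap between these lists among the 10. Among the 10, the region on 7S lay closest to another recurrent MACS peak, at 2.87 kb, and its nearest HOMER peak was 3.01 kb away. The remaining 9 had their nearest recurrent peak at 46.6 kb or farther.

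HOMER-free regions were wide, and most of all so against the other peaks of replicate 3. Their median width was 514.5 bp in replicate 1 (quartiles 324 and 753), 566 bp in replicate 2 (361 and 813) and 528 bp in replicate 3 (312.5 and 802.5). The HOMER-called regions had medians of 583, 647 and 243 bp, so they were somewhat wider in replicates 1 and 2 and much narrower in replicate 3. Widths of 500 bp or more were found for 304, 344 and 312 of the 584 in replicates 1, 2 and 3, or 52.1%, 58.9% and 53.4%. Of all chromosomal MACS peaks, 25.5%, 20.1% and 9.29% were that wide. Of the HOMER-called regions 72.1%, 77.0% and 13.9% were. Wide intervals meet others more readily, so the overlap asked of all 3 lists itself bears on the contrast with whole lists. The HOMER-called regions had passed the same overlap criterion. In replicate 3 the widest recurrent peaks were nearly all HOMER-free: 62 of the 66 above 1000 bp, against 58 of the 487 of up to 200 bp. In replicate 1 the HOMER-free share was highest among the narrowest recurrent peaks, with 42 of 56 of up to 200 bp. It was 17.7% of 385 between 500 and 600 bp and 42.3% (32.0 to 53.4) of 78 above 1000 bp. HOMER overlap was asked of the replicate 1 interval, and narrow intervals meet others less readily, so the choice itself bears on the share at low widths.

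**Figure D2:**
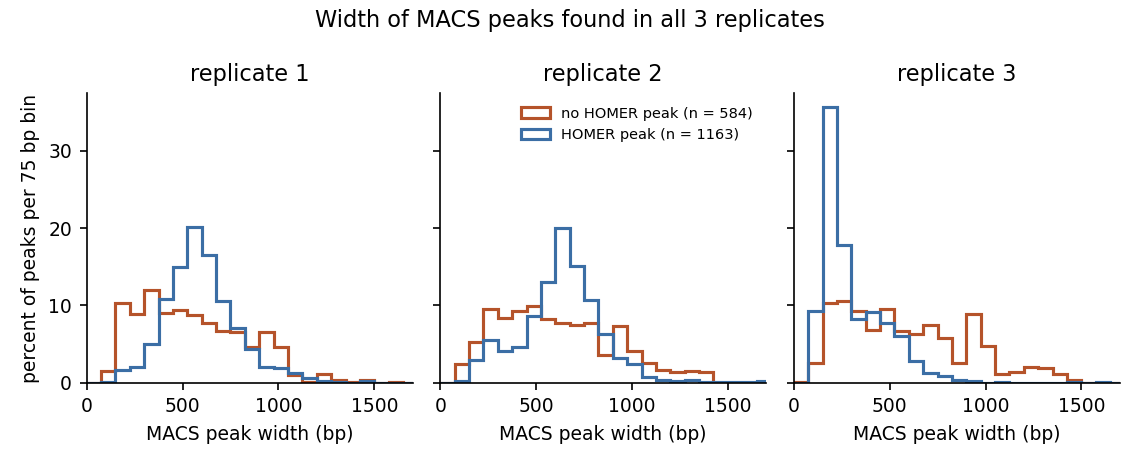
Width of the MACS peaks (x axis, bp) in each replicate, as the percent of regions per 75 bp bin (y axis), for HOMER-free and HOMER-called regions. Medians of the HOMER-free regions are 514.5, 566 and 528 bp, while those of the HOMER-called regions fall to 243 bp in replicate 3. In replicate 3 the HOMER-free regions rise again just above 900 bp, after a dip between 800 and 899 bp.

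The intervals of the 3 replicates coincided more closely in the HOMER-free regions. Widths of the same region gave a Spearman's rho of 0.756 for replicates 1 and 2, 0.737 for 1 and 3 and 0.815 for 2 and 3 over 584 regions. Over the 1163 HOMER-called regions the values were 0.609, 0.373 and 0.483. The stretch common to all 3 intervals had a median of 393.5 bp and made up a median of 68.1% of the stretch they spanned together, against 228 bp and 34.3% in the HOMER-called regions. Centres of replicates 2 and 3 lay a median of 31.5 bp apart, against 75.5 bp. For replicates 1 and 3 the medians were 38 and 75 bp. Those for replicates 1 and 2 were closer to each other, at 34.5 and 44.5 bp. A single peak was met in replicate 2 by 567 of the 584 regions (97.1%) and in replicate 3 by 546 (93.5%). Of the HOMER-called regions, 92.5% and 84.2% met a single peak. In 4 regions (0.68%) the highest-scoring intervals met in turn but shared no base among all 3, against 38 HOMER-called regions (3.27%). The narrower replicate 3 peaks of the HOMER-called regions enter those of these values that use replicate 3. They do not enter the rho and the centre gap for replicates 1 and 2. The spread of widths differs between the classes there too. Replicate 1 quartiles were 324 and 753 bp for HOMER-free and 484 and 699 bp for HOMER-called regions, so each rho is a description.

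A set of HOMER-free regions had nearly the same width in every replicate. In replicate 3, 65 regions were 900 to 999 bp wide, against 20 of 800 to 899 bp and 17 of 1000 to 1099 bp. The class of 700 to 799 bp held 62, so the low count at 800 to 899 bp lay between similar counts. In these classes, from the narrowest to the widest, replicate 1 had 47, 39, 52 and 17 regions, and replicate 2 had 55, 36, 57 and 21. The whole chromosomal MACS list of replicate 3 had 429, 211, 209 and 104 peaks in the same classes. It was thus about level from 800 to 999 bp, with more peaks at 700 to 799 bp and fewer at 1000 to 1099 bp. Intervals of 900 to 999 bp in all 3 replicates were found for 26 of the 584 regions and for 1 of the 1163 HOMER-called regions. In replicate 3 alone, 65 HOMER-free and 3 HOMER-called regions had this width. With their narrow replicate 3 peaks, few HOMER-called regions could thus meet the criterion in all 3. This width class was chosen after the widths were seen, so its count is a description.

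The 26 regions lay on 13 chromosomes, 17 on L and 9 on S chromosomes. Replicates 1, 2 and 3 gave them median percentiles of 51.2, 5.35 and 0.683, and 19 of the 26 were in the best 1% of the replicate 3 list. So were 34 of the 65 HOMER-free regions with this width in replicate 3. Width and score in replicate 3 gave a Spearman's rho of 0.705 over the HOMER-free and 0.853 over the HOMER-called regions, so high ranks there were not particular to the 26. The best of the 26 in replicate 3 was the region on 8S at 16037315 described above, with widths of 983, 950 and 982 bp. Another, chr1L:140801528-140802463, was 936, 933 and 923 bp wide, and 920 bp were shared by all 3 intervals. Its scores were 86.4, 344 and 529, for ranks of 4230, 1210 and 200. The region chr5L:136281029-136281945 was 917, 920 and 921 bp wide with 917 bp shared, and ranked 3449, 1153 and 213. In these examples the edges of the call were close across replicates, while the rank was not. Like widths in all 3 replicates were the criterion for the 26 regions, so close edges follow in part from it.

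Coinciding edges were not limited to that width. Both ends lay within 50 bp of each other in all 3 replicates in 83 of the 584 HOMER-free regions (14.2%, Wilson interval 11.6 to 17.3) and in 19 of the 1163 HOMER-called regions (1.63%, 1.05 to 2.54). The 83 had median widths of 634, 630 and 623 bp, and were found on all 18 chromosomes, 44 on L and 39 on S. Their median percentiles were 54.7, 14.0 and 2.81 in replicates 1, 2 and 3. The 50 bp limit was also set after the widths were seen. Both ends can coincide only where the widths are alike. The HOMER-called regions had median widths of 583, 647 and 243 bp in replicates 1, 2 and 3. Their narrower replicate 3 peaks therefore limit how many of them can meet it, and the contrast is not one of edges alone.

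The 3 widest HOMER-free regions of replicate 1 differed in this respect. The widest, chr4L:34279252-34280891, spanned 1640 bp in replicate 1 and 1876 bp in replicate 2 but 506 bp in replicate 3, at percentiles 54.7, 9.90 and 19.001. Next was chr1L:130679930-130681421, with 1492, 680 and 598 bp. The third, chr6S:105769304-105770770, kept 1467, 1410 and 1467 bp, of which 1410 bp were common, and ranked 5400, 682 and 686. Wide calls in replicate 1 therefore included both fixed and changing intervals.

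HOMER-free regions lay singly along the chromosomes. Only 26 of the 584 (4.45%, Wilson interval 3.06 to 6.44) had another HOMER-free region within 50 kb, and these formed 13 pairs and no larger group. The HOMER-called regions had 505 of 1163 within 50 kb of another of their own class (43.4%, 40.6 to 46.3) and formed 109 pairs and 73 larger groups, the largest of 13. The classes differ in number, which by itself changes such a share. Distances to the nearest other recurrent MACS peak of either class use the same set of targets. By that measure 56 HOMER-free regions (9.59%, 7.46 to 12.2) and 524 HOMER-called regions (45.1%, 42.2 to 47.9) had a neighbour within 50 kb, against 33.2% of all 1747 recurrent peaks. The shares were 27.7% and 59.9% without replicate 3, 52.3% and 62.1% without replicate 1, and 23.3% and 58.4% when counted from the replicate 3 list. The median gap was 615 kb for HOMER-free and 71.6 kb for HOMER-called regions. Spacing was not itself named in the choice, but the classes were split by the positions of HOMER calls. How far that split sets the spacing was not tested. Neighbouring peaks are not independent, and no test over regions was made.

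**Figure D3:**
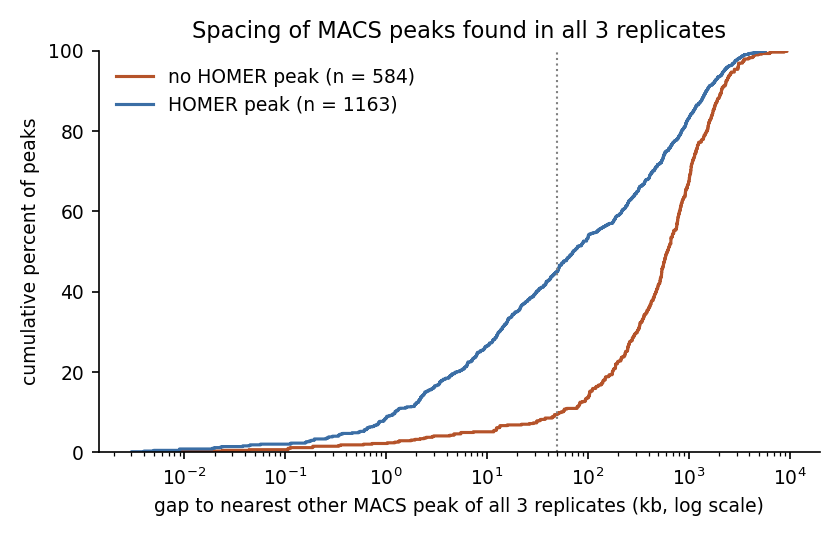
Gap to the nearest other MACS peak found in all 3 replicates (x axis, kb, log scale) against the cumulative percent of regions (y axis), with a dotted line at 50 kb. At that line the curve of the HOMER-free regions stands at 9.59% and that of the HOMER-called regions at 45.1%.

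The difference in spacing was also seen within broad bands of the replicate 1 rank, which do not make the classes equal in rank. Among regions beyond percentile 50 of the replicate 1 list, 30 of 384 HOMER-free regions (7.81%, 5.53 to 10.9) and 39 of 98 HOMER-called regions (39.8%, 30.7 to 49.7) had a recurrent neighbour within 50 kb. Between percentiles 25 and 50 the numbers were 18 of 159 (11.3%) and 72 of 198 (36.4%). In the best 25% they were 8 of 41 (19.5%, 10.2 to 34.0) and 413 of 867 (47.6%). Of those in this last band, 12 HOMER-free and 540 HOMER-called regions were in the best 10% of the list. Replicate 3 ranks differed within every band. From the best band to the worst, median percentiles there were 1.36, 4.55 and 9.81 for HOMER-free and 22.9, 41.4 and 52.1 for HOMER-called regions. The spacing also appeared in the single lists. No other replicate 1 MACS peak lay within 10 kb of 531 HOMER-free regions (90.9%), against 499 of the HOMER-called regions (42.9%). In replicate 2 the shares were 75.7% and 37.7%, and in replicate 3, with its long list, they were 62.7% and 54.3%.

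The gaps within the 13 pairs varied, and the first 3 pairs by chromosome and position are given. On 1L, chr1L:37888626-37889090 and chr1L:37900793-37901310 lay 11.7 kb apart, with replicate 2 scores of 341 and 405. The intervals chr1L:194150111-194150435 and chr1L:194150445-194150634 were 9 bp apart and met the same peaks of replicates 2 and 3. The third pair, chr1L:195410772-195411375 and chr1L:195416896-195417352, lay 5.52 kb apart with HOMER peaks 416 bp and 1.99 kb away. A further pair, on 4L, also met the same peaks of replicates 2 and 3, and another, on 2L, met the same replicate 3 peak. Whether such pairs are single regions split in replicate 1 was not tested.

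Most HOMER-free regions lay more than 50 kb from any HOMER peak. HOMER positions entered the choice of regions, so these gaps, measured from the replicate 1 interval, are a description. The median gap to the nearest HOMER peak of any replicate was 119.8 kb, with 16 regions (2.74%) within 1 kb, 64 (11.0%) within 10 kb and 182 (31.2%) within 50 kb. The other 2781 replicate 1 MACS peaks without a HOMER overlap had a median gap of 54.6 kb, with 5.65% within 1 kb and 25.4% within 10 kb. They were not matched to the regions in rank or width. Few regions were near misses, since asking for no HOMER peak within 500 bp left 572 of the 584 regions. The closest was chr3S:53405267-53405414, 17 bp from a HOMER peak, followed by regions at 58 and 69 bp. Just outside the choice, recurrent peaks overlapped a HOMER peak by as little as 5, 24 and 32 bp. The farthest was chr2S:111990747-111991306, 2246 kb from any HOMER peak, with scores of 50.3, 319 and 121 and percentiles of 99.2, 5.01 and 14.7.

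The other limit of the choice is the overlap with replicates 2 and 3. The smallest overlaps were 4, 8 and 13 bp with a replicate 2 peak and 1, 1 and 2 bp with a replicate 3 peak, and 4 and 6 regions shared under 50 bp with them. Just outside, HOMER-free peaks of replicates 1 and 3 lay 10, 11 and 21 bp from a replicate 2 peak, and those of replicates 1 and 2 lay 5, 7 and 10 bp from a replicate 3 peak. None of the 584 overlapped an interval of the deposited list of common peaks, and the nearest such interval was a median of 1681 kb away. Of the HOMER-called regions, 722 of 1163 (62.1%) overlapped one, and for the other 441 the median gap was 568 kb. How the common list was made was not examined here. If HOMER calls entered it, the absence of an overlap would follow from the choice of regions.

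HOMER-free MACS peaks were far more numerous where replicate 1 was not asked for. In replicate 2, 8399 of 8680 peaks shared with replicate 3 but not replicate 1 had no HOMER overlap (96.8%), against 275 of 2707 replicate 1 peaks shared with replicate 2 alone (10.2%, 9.08 to 11.4) and 303 of 350 shared with replicate 3 alone (86.6%, 82.6 to 89.7). The 584 regions thus form a small part of the HOMER-free peaks of replicates 2 and 3. Of the 9302 such peaks in the replicate 3 list, 673 (7.24%) were also met by a replicate 1 MACS peak. The share was 37.3% (31.9 to 43.0) of 287 peaks in the best 1% of that list, 18.5% (14.5 to 23.2) of 303 in the next 1%, and 8.58% of 874 between percentiles 2 and 5. Beyond percentile 10 it stayed between 4.31% and 5.77%. In the replicate 2 list it was 51.3% (43.5 to 59.0) of 156 peaks in the best 5%, 25.5% of 431 in the next 5% and between 3.16% and 9.08% beyond percentile 10.

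**Figure D4:**
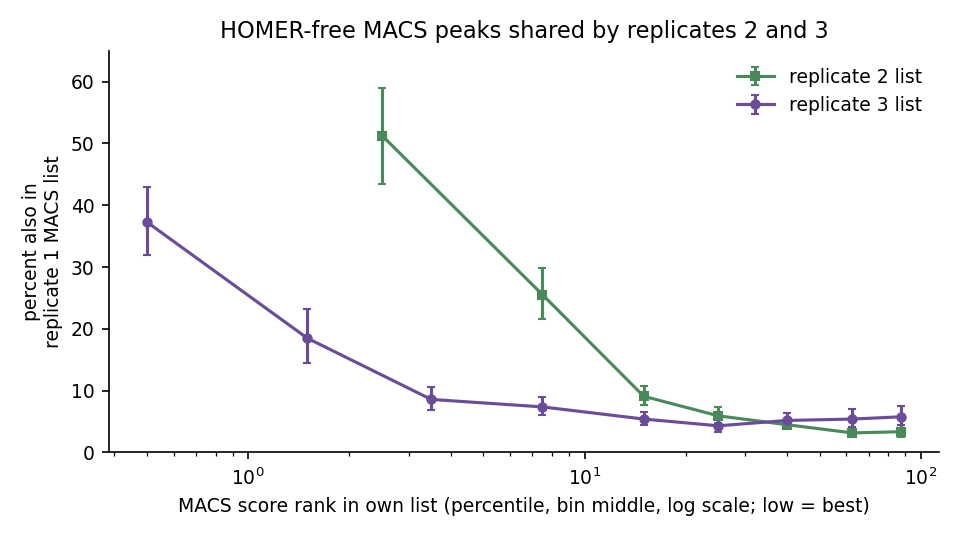
Percent of the HOMER-free MACS peaks shared by replicates 2 and 3 that also met a replicate 1 MACS peak (y axis), by the percentile of their score in the replicate 2 or replicate 3 list (x axis, middle of each bin, log scale, low is best). Bars are 95% Wilson intervals and cover counting error only. The share falls from 37.3% in the best 1% of the replicate 3 list to between 4.31% and 5.77% beyond percentile 10.

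Median widths in the same bins followed the rank. In the replicate 3 list they fell from 896 bp in the best 1% to 218 bp beyond percentile 75. The HOMER-free peaks shared by replicates 2 and 3 alone had a median width of 363 bp and a median percentile of 20.9 in the replicate 3 list, against 476 bp and 10.5 for those met in all 3.

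HOMER-free regions were found on all 18 chromosomes, at 0.233 per Mb over extents that run to the last peak end of each chromosome in the lists. Density ranged from 0.163 per Mb on 5L, with 26 regions, to 0.317 on 1S, with 57. The next highest were 7L at 0.276, with 35 regions, and 2S at 0.269, with 43. The HOMER-called regions had 0.464 per Mb overall and ranged from 0.313 on 2S to 0.687 on 8S. The chromosomes ranked differently for the classes, with a Spearman's rho between the densities of -0.088 over 18 chromosomes, given as a description because both densities share the extents. The HOMER-free share of recurrent peaks was highest on 2S, at 46.2% (36.5 to 56.3), and on 1S and 4L, at 43.2% and 43.5%. It was lowest on 9_10S, at 24.4% (16.4 to 34.7). These were picked as the extremes of 18 chromosomes, and the intervals of neighbours in this order overlap.

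When each extent was divided into 10 equal parts, the regions were spread over all of them. The first part held 71 regions (12.2%, 9.75 to 15.1), the last 79 (13.5%, 11.0 to 16.5), and those between held 45 to 64 each. For the HOMER-called regions the first and last parts held 13.3% and 9.37% (7.83 to 11.2), and for all replicate 1 MACS peaks on chromosomes 12.1% and 9.58%. Which end of a chromosome is the first depends on the assembly, and no centromere positions were used.

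The frog's allotetraploid genome keeps chromosomes from both ancestral species, named L for the long and S for the short copy of each pair. Of the 584 regions, 305 lay on L chromosomes (52.2%, 48.2 to 56.2) and 279 on S chromosomes. Of all chromosomal MACS peaks, 56.9% in replicate 1, 53.4% in replicate 2 and 50.8% in replicate 3 lay on L, so the share of the HOMER-free regions was within the range of the lists. It was below the share of replicate 1, from whose list the regions were taken, which also lay above their interval. Density was 0.223 per Mb on L and 0.245 per Mb on S. The log2 ratio of L to S density averaged -0.089 ± 0.35 (SD over 9 chromosome pairs), with L denser in 4 pairs and S in 5, so the mean was well within the spread between pairs. Pairs 1, 2 and 5 stood at -0.45, -0.56 and -0.52, whereas pairs 4, 7 and 9_10 stood at 0.32, 0.24 and 0.26.

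The HOMER-called regions gave 0.069 ± 0.19, with L denser in 6 of 9 pairs. The difference between the classes, HOMER-free minus HOMER-called, averaged -0.16 ± 0.49 over the 9 pairs and was positive in 5 and negative in 4. It was smaller than its spread and was most negative in pairs 1, 2 and 5. The absence of HOMER calls is part of how the regions were chosen, and HOMER peaks were themselves denser on L, with mean ratios of 0.22 to 0.23. The MACS lists, also part of the choice, had mean ratios of 0.13, -0.070 and -0.22 in replicates 1, 2 and 3. How either enters the ratio of the regions was not tested. HOMER-free regions on L and S chromosomes had median percentiles of 59.6 and 62.5, respectively, in the replicate 1 list. The replicate 2 list gave 16.7 and 20.4, and the replicate 3 list 7.42 and 8.67. Median widths on L and S were 534 and 473 bp in the first, 591 and 550 bp in the second and 534 and 516 bp in the third, so the medians were slightly better in rank and wider on L in every replicate.

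**Figure D5:**
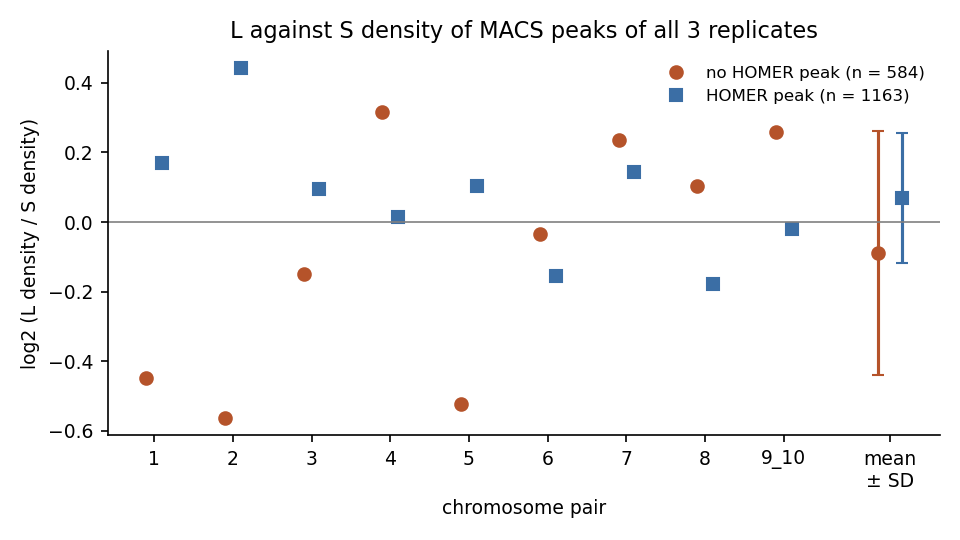
Log2 ratio of L to S density (y axis, above 0 means denser on the L chromosome) for each of the 9 chromosome pairs (x axis), for HOMER-free and HOMER-called regions, with the mean and SD over pairs at the right. The HOMER-free regions range from -0.56 in pair 2 to 0.32 in pair 4 and average -0.089 ± 0.35.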

How the data were processed

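The submitters' processing notes name Bowtie2, SAMtools, MACS, HOMER and bedtools, and the sources used here give no version, setting or genome build. The deposited lists hold 1 MACS and 1 HOMER list for each of 3 ChIP replicates, each called against 1 input per the list names, and 1 common list. The fifth column of each deposited list is a score with no header, used only to rank peaks inside that list. MACS scores start at 50, and HOMER scores are whole numbers.

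Overlap meant at least 1 shared bp. Ranks give tied scores their mean. Intervals are 95% Wilson intervals and, like all shares, cover counting error only. Regions were joined into groups at gaps of up to 50 kb. Named regions are the 10 with the best mean percentile, the 3 widest in replicate 1, the first 3 groups and those nearest to and farthest from a HOMER peak; others, in the 900 to 999 bp class, were chosen after their values were seen. The regions and comparisons were chosen with earlier results of these data known. A gene table of another assembly was not used here.

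Python 3.11.15, numpy 2.4.6, pandas 2.3.3, statsmodels 0.14.6 and matplotlib 3.10.9 were used. Overlap counts differed from bedtools 2.31.1 in 0 of 42 ordered pairs of lists, and the procedure was tested on simulated lists.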

Additional observations from a re-analysis of the deposited data

How the results depend on the processing

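Peak lists limit every value: depth is unknown, a stricter call moves a list's length, and no test over regions was made. The number of HOMER-free regions went from 584 to 168 in the better 50% of each MACS list, and to 891 to 9170 without 1 replicate. Their share of recurrent peaks, 33.4%, became 51.4% with 50% of both intervals shared, 18.8% in the better 50% of each MACS list and 35.9% with the better 50% of each HOMER list, and 20.004% to 87.8% without 1 replicate. The share within 50 kb of another HOMER-free region, 4.45%, became 1.75% with 50% of both intervals shared, 2.99% with centres within 200 bp, 2.38% in the better 50% of each MACS list, 8.94% and 14.9% when counted from the replicate 2 and 3 lists, where 1 region may be several peaks, and 5.93% to 50.2% without 1 replicate. It was 2.05% at 10 kb and 10.4% at 200 kb. Fewer or more peaks enter by construction in these settings; beyond that the cause was not tested. The share within 50 kb of any recurrent peak was below that of HOMER-called regions in all 11 settings. It came nearest without replicate 1, at 52.3% against 62.1%. The L to S ratio moved by less than its SD over pairs in every setting, from -0.20 without replicate 1 to 0.043 in the better 50% of each MACS list. Median percentiles of rank ranged from 35.5 to 64.3 in replicate 1, from 7.53 to 39.4 in replicate 2 and from 1.92 to 18.6 in replicate 3. Median widths ranged from 361 to 678.5 bp, from 387 to 690.5 bp and from 364 to 668 bp in the same order. No paired analysis was possible because the replicate numbers pair ChIP with input libraries, and the peak lists analysed here are of ChIP libraries.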

Other observations

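On unplaced scaffolds, the same criteria held for 46 of the 133 replicate 1 MACS peaks found in both other MACS lists (34.6%, 95% Wilson interval 27.0 to 43.0), on 33 scaffolds. Their median percentiles were 60.5, 14.7 and 10.3 in replicates 1, 2 and 3, and their median widths 437.5, 453 and 380.5 bp, so the order of the ranks across replicates was that of the regions on chromosomes.

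Among the 26 HOMER-free regions of 900 to 999 bp in all 3 replicates, percentiles spanned 12.1 to 99.9 in replicate 1, 1.77 to 30.2 in replicate 2 and 0.0424 to 16.3 in replicate 3. The lowest of them in replicate 3 was chr4L:80157966-80158926, with widths of 961, 983 and 913 bp and scores of 50.03, 92.9 and 115. What these intervals have in common in sequence was not tested, since no genome sequence was used here.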
